A study of Drosophila melanogaster and Drosophila simulans and Drosophila yakuba with 4 samples.

Results

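The troponin and tropomyosin genes of the thin filament were read from the RNA-seq table of Drosophila melanogaster white prepupae. The members are 9 of the 15492 genes listed: the tropomyosin genes Tm1 and Tm2, the troponin T gene up, the troponin I gene wupA and the 5 troponin C genes TpnC73F, TpnC47D, TpnC25D, TpnC41C and TpnC4. They were taken by name and not by a cut on their values. Earlier results of these data were known when they were chosen. RNA came from whole animals at the white prepupa stage, and 1 library was made for each of 4 species. The species is taken from the title of the sample, from which its organism field differs. The sources used here do not give the strain, the sex or the number of animals, and name no treatment. The D. simulans, D. yakuba and D. pseudoobscura libraries were not used, since their identifiers were not matched to these genes. With 1 library there are no replicates, no test was made, and every comparison below is between genes of the same library.

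In striated muscle, tropomyosin lies along the actin filament and covers the sites that myosin binds. Troponin T ties the troponin complex to tropomyosin, troponin I holds the filament in the blocked state, and troponin C releases the block when it binds calcium. Insects carry several troponin C genes that differ between muscles. TpnC73F and TpnC47D are known as the forms of larval body wall muscle, while TpnC41C and TpnC4 are known from the adult indirect flight muscles, stretch-activated fibers that are built during metamorphosis. At the white prepupa stage, the start of pupariation, the larval muscles are still present.

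Values are FPKM, which divides the fragments of a gene by the length of its transcript and by the mapped total, so that levels are compared per length. Bounds are those deposited with each value and reach about 2 standard errors to each side. They cover counting and the assignment of reads within the library, and not variation between animals or libraries. The reads behind a value were solved from its bounds. They summed to 12038283 in the library, of which the 9 genes held 10938, or 0.0909%. Of the genes with fewer than 300 implied reads, 69.4% gave a whole number within 0.05 reads. Of the 5 members in that range only TpnC47D did, so the implied reads of the low members are approximate.

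Of the 9 genes, 8 carried their current identifier. No row carried that of wupA (FBgn0283471). A row with an identifier outside the gene tables, FBgn0004028, was the single row between CG7135 and lncRNA:CR32553. In the newer annotation these are the nearest genes on each side of wupA that also have a row here. That annotation places 6 genes between them, wupA included. The row spans 11270 bp, against 11355 bp for wupA in that annotation. The longest other gene there between these neighbors has 922 bp. This row was used as wupA, and every value of wupA rests on that match by neighbors and length. Positions are given in dm3, while strands, exons and transcript lengths are those of the newer dm6 annotation.

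Expression was spread over a 2698-fold range of FPKM, from Tm1 to TpnC41C. Of the 9 genes, 7 stood at FPKM 1 or more, beside 74.5% of all genes listed, and the 2 below that level were the adult flight muscle forms TpnC41C and TpnC4. At a minimum of 0.1 all 9 members passed, beside 86.8% of all genes, and at a minimum of 5 there were 5, beside 55.5%. Among protein-coding genes alone 79.2% stood at FPKM 1 or more. The median FPKM was 22.3 over the 9 genes and 6.90 over all genes listed. In a whole animal, fewer muscle cells and less RNA per muscle cell cannot be told apart.

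**Figure D1:**
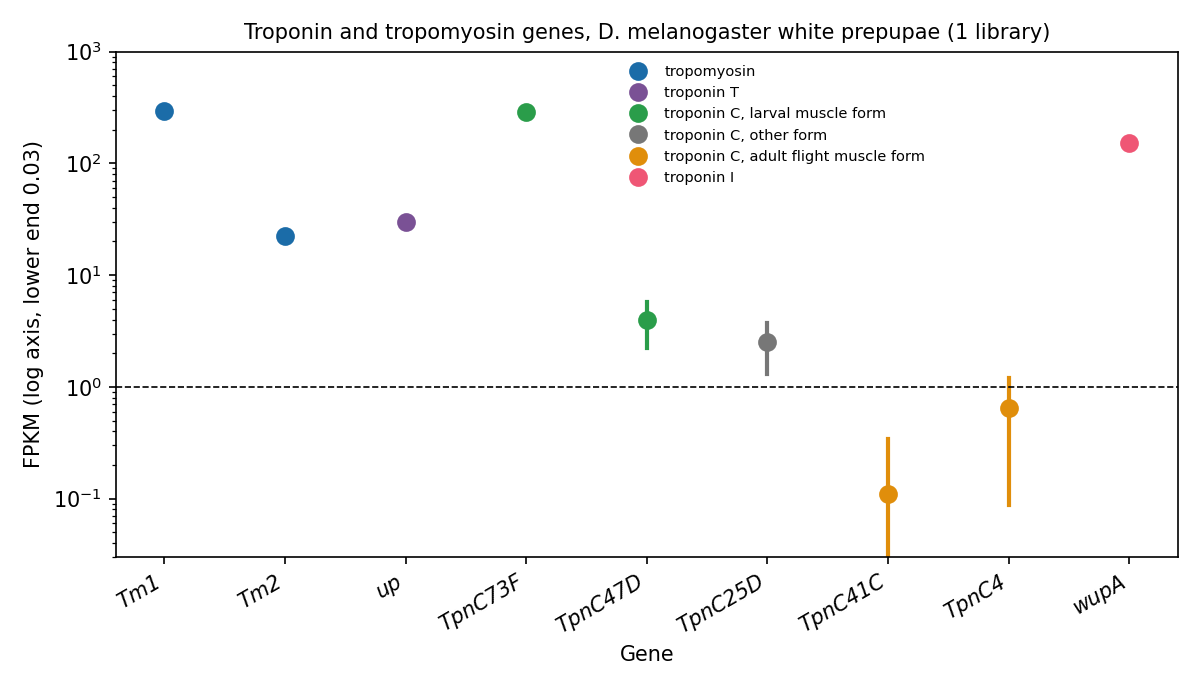
FPKM of the 9 genes on a log axis, with points for the values, vertical lines for the deposited bounds (hidden by the points where narrow, and running off the axis for TpnC41C, whose lower bound is 0) and a dashed line at FPKM 1. Tm1 at 296 and TpnC73F at 289 lie highest, and TpnC41C at 0.110 and TpnC4 at 0.644 are the points below the dashed line.

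The tropomyosin genes stood far apart. Tm1, which encodes muscle tropomyosins and also cytoskeletal forms outside muscle, was at an FPKM of 296 (bounds 287 to 305). Tm2, a muscle tropomyosin gene, was at 22.3 (bounds 19.7 to 24.9). The ratio of Tm1 to Tm2 was 13.3 (95% interval 11.8 to 14.9, from the bounds). Both are neighbors on the plus strand of chromosome 3R in dm3, with Tm1 from 11107093 to 11134501 and Tm2 from 11135915 to 11140919, a gap of 1413 bp. Tm1 has 18 annotated transcripts of 3 to 12 exons and 752 to 3054 bases in the newer dm6 annotation, while Tm2 has 6, of 1145 to 1980 bases. The Tm1 locus overlaps no other listed gene, but in that annotation 280 of its 9804 exon bases are shared with l(3)neo43. With 1 value per gene, the muscle and cytoskeletal transcripts of Tm1 were not separated. Counted as implied reads per kilobase of the longest annotated transcript the ratio was 9.65, and per kilobase of the shortest it was 22.7.

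The RNA levels of troponin T and troponin I also differed, although the proteins are built into the complex in equal number. Protein was not measured, so the RNA values do not give the balance of the complex. The gene up was at an FPKM of 29.6 (bounds 26.7 to 32.4), and wupA at 151 (bounds 145 to 157). The ratio of up to wupA was 0.195 (95% interval 0.176 to 0.216), and the bounds of the genes lay apart. Both lie on the minus strand of the X chromosome, up from 13487507 to 13496536 and the row used as wupA from 17999586 to 18010855. Annotated transcripts have 1413 to 1696 bases for up and 1029 to 1347 for wupA, so those of up are longer. Implied reads per unit of FPKM were 14.6 for up and 17.1 for wupA, the other way round from the annotated lengths. Per kilobase of the shortest transcript the ratio was 0.122, further from 1 than by FPKM.

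A single gene held nearly all of the troponin C. TpnC73F was at an FPKM of 289 (bounds 278 to 299), from 3249 implied reads. This is 97.5% of the 295.8 summed over the 5 troponin C genes. TpnC47D, the other larval muscle form, was at 3.99 (bounds 2.25 to 5.72), from 21.0 implied reads, which is 1.35% of the sum. TpnC73F was therefore 72.4 times TpnC47D (95% interval 47.1 to 111), although both are known from the same larval muscles. By implied reads, not divided by length, the ratio was 155, and per kilobase of the longest transcript it was 116. TpnC73F lies on chromosome 3L from 17039260 to 17041490 and TpnC47D on 2R from 7161540 to 7162796. The longest annotated transcript has 1059 bases in TpnC73F and 791 in TpnC47D. Implied reads per unit of FPKM were 11.3 for TpnC73F and 5.27 for TpnC47D, a larger gap than that of the annotated lengths. How reads that match several troponin C genes were assigned is not stated, and the gene sequences were not compared.

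TpnC25D, the remaining troponin C gene, was at an FPKM of 2.53 (bounds 1.30 to 3.75), from 17.1 implied reads. These bounds overlap those of TpnC47D. Its locus on 2L, from 5218255 to 5219055, shares 60 bp with tkv, the gene of a BMP receptor on the opposite strand, which had an FPKM of 58.8. Whether the reads keep their strand is not stated, so reads in the shared bases cannot be told apart.

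The adult flight muscle forms were close to the limit of detection. TpnC41C was at an FPKM of 0.110 (bounds 0 to 0.341), from 0.901 implied reads, and made up 0.0371% of the troponin C sum. TpnC4 was at 0.644 (bounds 0.0877 to 1.20), from 5.36 implied reads, and made up 0.218% of the sum. Fewer than 1 implied read lies under the 3 reads that a count of 0 allows, so TpnC41C was not detectable at this depth. The ratio of TpnC41C to TpnC4 was 0.170 with a 95% interval of 0.0183 to 1.59 from the bounds, and 0.00360 to 1.52 by the exact binomial interval on reads rounded to whole numbers. Both intervals include 1, so a difference between these genes was not detectable at this depth. TpnC4 lies on 2R from 1390942 to 1395371, wholly inside the locus of Ugt50B3 on the opposite strand, a UDP-glycosyltransferase gene at FPKM 4.27, although the newer annotation gives them no exon base in common. TpnC41C lies on 2R from 952742 to 957715 and overlaps no other listed gene.

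The larval muscle forms together stood far above the adult flight muscle forms. TpnC73F and TpnC47D summed to an FPKM of 292.5, against 0.754 for TpnC41C and TpnC4, a ratio of 388 (95% interval 177 to 850). The exact binomial interval on 3270 and 6.26 implied reads, rounded to whole numbers, was 178 to 1058. The size of the ratio is loose because its lower part rests on about 6 reads, and with 1 FPKM added to each sum it was 167. The comparison also rests on TpnC73F, since TpnC47D alone, at 3.99, stood closer to TpnC4 than to TpnC73F on the log scale. Of the genes of flight muscle structure outside the members, 0 of 2 measured were at FPKM 1 or more, beside 74.5% of all genes listed. A share of only 2 genes says little. Act88F, the actin of the indirect flight muscles, had an FPKM of 0.441 from 8 implied reads. The flight muscle thick filament protein gene fln was listed at 0, a count that allows up to 3 reads, and Strn-Mlck was not matched.

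The actin genes, singled out here after their values were seen, had the same order. Act88F is also among the flight muscle genes given above, so these results are not separate. Act57B and Act87E, known from larval muscle, were at 71.8 and 15.6, while Act79B and Act88F, known from adult muscles, were at 0.543 and 0.441. The ratio of the sums was 88.8 (95% interval 54.3 to 145), or 44.6 with 1 FPKM added to each sum. Actin genes are alike in sequence, so reads may have been split between them. The Act57B locus, of 2413 bp, shares 96 bp with a small nucleolar RNA gene listed at an FPKM of 538.6. Act57B is the larger part of the larval sum, and how much of its value comes from the shared bases was not tested. Act87E, whose locus overlaps no other listed gene, was at 15.6, still above Act79B and Act88F.

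Summed by subunit, troponin C, troponin I and tropomyosin stood within a few-fold of each other. Troponin T lay lower, with up at 0.195 times wupA. The 5 troponin C genes summed to 1.96 times wupA (95% interval 1.86 to 2.06), and this was 1.27 by implied reads. The tropomyosin genes summed to 2.11 times wupA (95% interval 2.01 to 2.21). Per kilobase of the longest annotated transcript the tropomyosin ratio turned round to 0.816, and per kilobase of the shortest it was 2.39, so which of the sums is higher depends on the Tm1 transcripts taken as expressed.

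**Figure D2:**
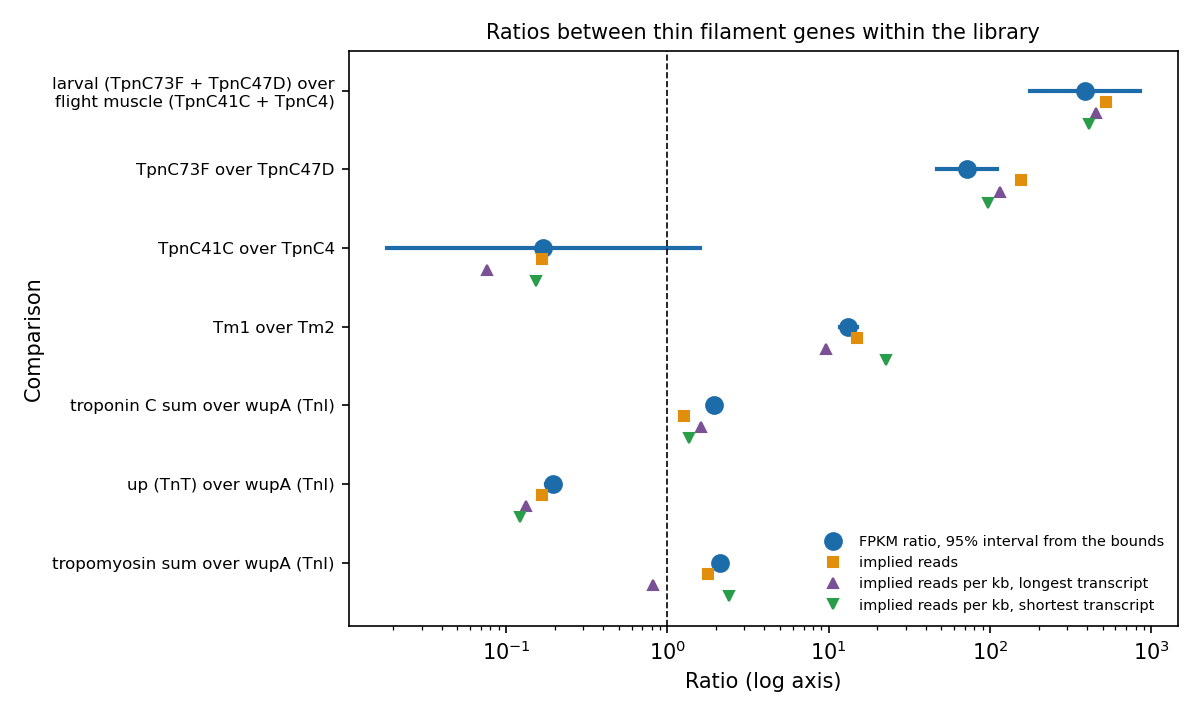
Ratios between the thin filament genes on a log axis, with blue points for FPKM, lines for the 95% interval from the bounds and smaller marks for implied reads and implied reads per kilobase of the longest or shortest transcript. The dashed line is a ratio of 1, which only the interval of TpnC41C over TpnC4 crosses, while the tropomyosin sum over wupA lies on both sides of it with the transcript length used.

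In order of FPKM the genes ran Tm1, TpnC73F, wupA, up, Tm2, TpnC47D, TpnC25D, TpnC4 and TpnC41C. The steps of this order with overlapping bounds were those from Tm1 to TpnC73F, from TpnC47D to TpnC25D and from TpnC4 to TpnC41C. The bounds of the other neighbors lay apart, with the widest of these steps from Tm2 to TpnC47D, a ratio of 5.60, and from wupA to up, a ratio of 5.12. The narrowest was from up to Tm2, a ratio of 1.32. Among all genes listed, Tm1 lay at the 96.6th percentile, TpnC73F at the 96.5th and wupA at the 93.6th. The gene up lay at the 76.4th, Tm2 at the 71.3rd, TpnC47D at the 40.8th and TpnC25D at the 34.2nd. TpnC4 was at the 22.1st percentile and TpnC41C at the 13.5th.

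Among 29 sarcomere genes, the 9 members and 20 measured genes of the other thin filament, thick filament and Z-disc lists, Tm1 ranked 2, TpnC73F 3 and wupA 5. Only the Z-disc gene Zasp66, at 1487, stood above Tm1. The bounds of tmod, which encodes the tropomodulin that caps the slow-growing end of the thin filament, were 277.5 and 290.5 and overlapped those of Tm1 and TpnC73F. Of the 7 other thin filament genes, 5 reached FPKM 1, and the median was 8.07, between tmod at 284 and Act88F at 0.441. Of 8 thick filament genes 6 did, and the median was 6.33, between the myofilin gene Mf at 126.7 and fln at 0. Mhc, the muscle myosin heavy chain, was at 4.82, below Tm2 and up and overlapping TpnC47D in its bounds. Of 5 measured Z-disc genes 4 reached FPKM 1, and the median was 13.3, between Zasp66 and Zasp67 at 0, and Zasp52 was not matched. Over the 20 genes the median was 9.80, and 15 reached FPKM 1, which is 75% of them, beside 74.5% of all genes listed. Of the 12 whose loci overlap no other listed gene, 7 reached FPKM 1, or 58.3%.

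**Figure D3:**
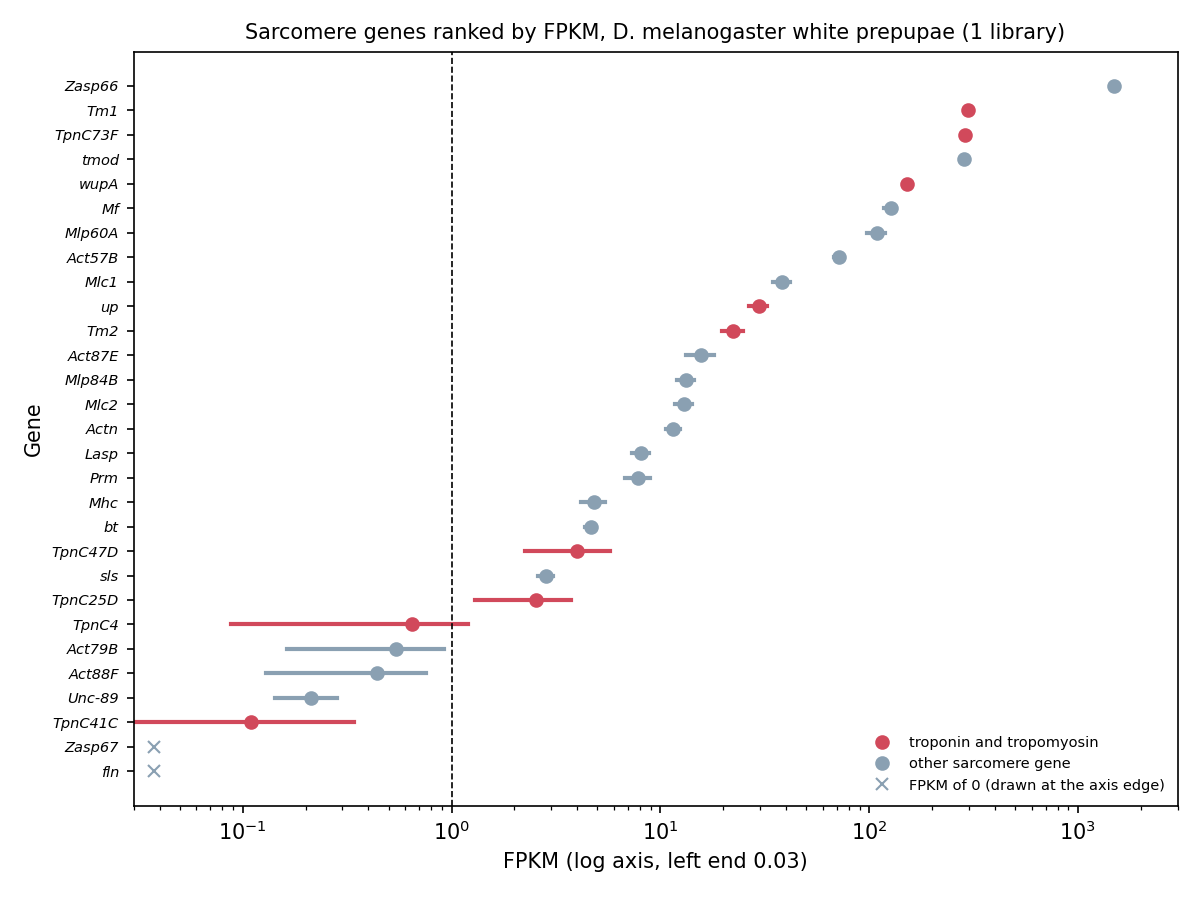
FPKM of 29 sarcomere genes in descending order on a log axis, with the troponin and tropomyosin genes in red, other sarcomere genes in grey, lines for the deposited bounds, crosses for genes listed at 0 and a dashed line at FPKM 1. Tm1, TpnC73F and wupA lie among the top 5, while TpnC41C and TpnC4 lie near Act79B and Act88F at the low end.

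Markers of other tissues were read in the same RNA. Over all genes listed, 74.5% reached FPKM 1 and the median was 6.90. All 6 fat body markers reached FPKM 1, with a median of 4493, between Fbp2 at 14160 and Lsp1alpha at 245.9. The 5 salivary gland markers did too, with a median of 98.4, between Sgs8 at 546.4 and Sgs4 at 4.99. So did the 4 midgut markers, with a median of 567.6, between Jon65Aiv at 2508 and betaTry at 5.11. The 5 neuron markers had a median of 4.71, below that of all genes listed, between Syt1 at 24.0 and Syn at 1.32. Of 4 hemocyte markers 3 reached FPKM 1, or 75%, near the share over all genes. Their median was 14.1, between He at 42.6 and Hml at 0.341. The muscle markers Mhc, Mlc2 and Prm were at 4.82, 12.9 and 7.84, all far below TpnC73F at 289. These markers do not stand for all muscle genes. Other sarcomere genes ran from Zasp66 at 1487 and tmod at 284 down to fln and Zasp67 at 0. Between these lay Mlp60A at 108.7 and Mlc1 at 38.3. The part of non-muscle tissue in the levels of Tm1 and TpnC73F was not tested. The title of the sample names D. melanogaster and its organism field names D. yakuba. The title was followed, since 14872 of the 15492 identifiers are in the D. melanogaster gene table. Identifiers show the annotation that the values were made with, and the species of the RNA itself was not tested.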

How the data were processed

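The RNA was of whole white prepupae and was sequenced from a single end. The authors aligned the trimmed reads with TopHat, and Cufflinks gave them an FPKM for each gene. The deposited FPKM values come with lower and upper bounds and a status, which was OK for all 9 members. Bowtie, SAMtools and dm3 are named too in the submitters' processing notes, without versions.

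Rows of a gene were summed. Implied reads were solved from bounds taken as FPKM plus and minus 2 times FPKM over the square root of the reads. This arithmetic was run on data simulated with the same formula, which cannot show whether the deposited bounds follow it. The implied reads totalled 12038283. Dm3 starts were shown counting from 1. Without that step 11 of 2860 starts on 2L equal those of Ensembl release 115 (dm6), and with it 1960 do. Exons and transcript lengths are from that release. Ratios have 95% intervals from the bounds by the delta method on the log scale, and exact binomial (Clopper-Pearson) intervals on implied reads as an alternative. They cover counting and assignment error only.

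Members and lists were chosen with earlier results of these data known: other thin filament, thick filament, Z-disc, calcium handling, flight muscle structure and regulators, muscle regulators, EF-hand genes outside the sarcomere, and fat body, salivary gland, neuron, hemocyte and midgut markers. Named were all members, the highest and lowest gene of each list, genes compared with a member and genes whose loci overlap a member. The gene whose locus overlaps Act57B was given by its kind only. Other pseudocounts, FPKM minimums, length scalings and backgrounds were tried. The planned comparison of troponin C proteins was not run, since no sequences were used here. The work was done in Python 3.11.15 (pandas 2.3.3, numpy 2.4.6, matplotlib 3.10.9, scipy 1.17.1).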

Additional observations from a re-analysis of the deposited data

How the results depend on the processing

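Of 40 recomputed ratios, 24 stayed inside the 95% interval of the reported ratio, 15 moved outside it in the same direction and 1 turned round. A further 24 settings are no test, since each gene has 1 row with status OK and the exact binomial setting changes only the interval. Larval over adult flight muscle troponin C was 167 with a pseudocount of 1 FPKM and 2664 without TpnC4, where the lower part rests on under 1 read. By implied reads not divided by length, TpnC73F over TpnC47D was 155, the troponin C sum over wupA 1.27, up over wupA 0.167 and the tropomyosin sum over wupA 1.79. The settings per kilobase, without TpnC4 and for actins were chosen after seeing the data. Per kilobase of the longest and the shortest transcript, Tm1 over Tm2 was 9.65 and 22.7, the troponin C sum over wupA 1.62 and 1.37, up over wupA 0.133 and 0.122, and the tropomyosin sum over wupA 0.816, turned round, and 2.39. TpnC73F over TpnC47D was 116 per kilobase of the longest transcript. The actin ratio was 44.6 with a pseudocount of 1 FPKM. Which transcripts are expressed was not tested. Of the sarcomere genes outside the members, 7 of the 12 whose loci overlap no other gene were at FPKM 1 or more, so the share was 58.3%, against 75% over all 20. The cause was not tested. The members at FPKM 1 or more numbered 9 at a minimum of 0.1 and 5 at a minimum of 5. Percentiles moved by at most 10.5 points with another background. The protein comparison and its alternative were not run. No paired analysis was possible because the genes come from a single library.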

Other observations

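Of the 9 EF-hand genes listed outside the sarcomere, relatives of troponin C in their calcium-binding fold, 9 reached FPKM 1, beside 74.5% of all genes listed and 79.2% of protein-coding genes, and their median was 43.1. Calmodulin (Cam) was highest at 718, and Mlc-c, the light chain of non-muscle myosin, was at 653, both above TpnC73F at 289. Frq2, a neuronal calcium sensor, was lowest at 4.41. Of 6 measured genes of muscle calcium handling, 4 reached FPKM 1, or 66.7% beside the same 74.5%, and the median was 3.55, between the calcium pump gene SERCA at 41.9 and the calcium release channel gene RyR at 0.0707, from 7.64 implied reads. Ca-beta was not matched.

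Of the 7 measured regulators of flight muscle, 7 reached FPKM 1, beside 74.5% of all genes listed, and their median was 11.2. The highest was the homeodomain gene exd at 93.5. The lowest was vg, a wing and flight muscle gene, at 1.06 with bounds of 0.794 and 1.32, which include FPKM 1. The gene ap was not matched. These regulators also act in imaginal discs and other tissues, and the tissues were not separated. Of 7 general muscle regulators and fusion genes, 3 reached FPKM 1, or 42.9% beside the same 74.5%, and 7 reached 0.1, beside 86.8%. Their median was 0.997, between mbc, which acts in myoblast fusion, at 19.6 and the myogenic factor gene nau at 0.666.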
